A study of Homo sapiens with 6 samples.

Results

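The muscle miRNAs miR-1, miR-133a and miR-206 and the liver miRNA miR-122 were read from small RNA libraries of exosomes, the small vesicles that cells release. The exosomes came from HCT116, a human colorectal cancer line. Every entry of these miRNAs was taken by name, which gave 6 of the 2575 mature miRNA entries in the deposited tables: hsa-miR-1, hsa-miR-133a-3p, hsa-miR-133a-5p, hsa-miR-206, hsa-miR-122-5p and hsa-miR-122-3p. The prefix hsa, for human, is left out from here on where the name is clear. The libraries fall into 2 groups of 3 by their sample titles. Those titled ETBF came from HCT116 cells co-cultured for 6 h at a multiplicity of infection of 500 with enterotoxigenic Bacteroides fragilis, a toxin-producing gut anaerobe. Those titled untreated came from HCT116 cells given the bacterial medium without the bacterium. All cells were at passage 16 to 19 and were grown in 1640 medium. The labels do not mention serum, and do not say that the replicates came from separate cultures. The names of the deposited files give the opposite group to the titles in 6 of 6 libraries. Groups here follow the titles, and every direction between the groups turns round if the file names are right.

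miRNAs guide Argonaute proteins to messenger RNAs through their seed, bases 2 to 8 from the 5′ end, and lower the output of those messages. miR-1 and miR-133a are made together from shared precursors in heart and skeletal muscle, where miR-1 promotes differentiation and miR-133a restrains the serum response factor. miR-206 is confined largely to skeletal muscle and lies next to miR-133b. miR-122 is the dominant miRNA of hepatocytes, regulates cholesterol and fatty acid metabolism, and is used by hepatitis C virus. miR-1 and miR-133a are known for low levels in colorectal tumours, and none of these miRNAs is a marker of colonic epithelium.

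The mature sequences below show which of these miRNAs share a seed, printed in capitals. They are from RefSeq on GRCh38.p14, in which 6 of 6 entries matched, with the entry miR-1 matched to its current name miR-1-3p. Every one is 22 bases long, so they do not differ in length. How evenly the libraries captured different sequences was not tested, so levels set between miRNAs here are levels of counts. miR-133b is shown for its likeness to miR-133a-3p.
miR-1: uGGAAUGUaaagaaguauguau
miR-206: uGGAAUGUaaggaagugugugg
miR-122-5p: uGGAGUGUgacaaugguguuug
miR-133a-3p: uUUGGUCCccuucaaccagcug
miR-133b: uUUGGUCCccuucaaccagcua
miR-133a-5p: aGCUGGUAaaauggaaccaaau
miR-122-3p: aACGCCAUuaucacacuaaaua

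miR-1 and miR-206 have the same seed and differ at 4 of 22 positions, all outside it (A11G, A17G, A21G and U22G, with the base of miR-1 first and positions counted from the 5′ end). The seed of miR-122-5p differs from that of miR-1 by A5G alone. miR-133a-3p and miR-133b differ at the last base alone (G22A), so a read that lacks that base fits both. miR-613, the other entry with the seed of miR-1, had 0 counts in all 6 libraries.

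miR-1 is encoded at 2 loci, MIR1-2 (chr18:21829015-21829036, minus strand) and MIR1-1 (chr20:62554351-62554372, plus strand), coordinates of the mature form on GRCh38.p14. miR-133a-3p is encoded beside each, by MIR133A1 (chr18:21825712-21825733, minus strand) 3.28 kb away and by MIR133A2 (chr20:62564970-62564991, plus strand) 10.6 kb away. In GENCODE release 29, MIR1-2 and MIR133A1 lie in exons of MIR133A1HG, opposite in strand to MIB1 and within one of its introns. MIR1-1 lies in an intron and MIR133A2 in an exon of MIR1-1HG. MIR206 (chr6:52144401-52144422, plus strand) lies 4.57 kb from MIR133B. MIR122 (chr18:58451088-58451109, plus strand) lies in an exon of MIR122HG, a long non-coding RNA.

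Both muscle and liver miRNAs were abundant in every library. miR-1 stood 12th, miR-122-5p 23rd, miR-133a-3p 51st and miR-206 105th among the 2575 entries by mean CPM, the counts per 1000000 counts of a library after TMM scaling. Together the 6 entries held 2.69%, 2.04% and 1.82% of the counts of the 3 libraries titled ETBF, against 2.70%, 2.47% and 2.78% of those titled untreated. The share was 2.18% ± 0.450 in the libraries titled ETBF and 2.65% ± 0.160 in those titled untreated (SD, n = 3 each, exact permutation test, two-sided, p = 0.2; 0.1 is the smallest p that 3 against 3 allows). The libraries titled ETBF replicates 2 and 3 had the lowest shares, and there miR-148a-3p, the most abundant entry, held 42.6% and 51.1% of the counts, against 26.3% to 38.2% in the other 4 libraries. The difference in the share of the 6 entries was -0.718 percentage points without replicate 1 titled ETBF and -0.286 without replicate 3 titled ETBF. With miR-148a-3p left out of the total, the share was lower in the libraries titled ETBF by a difference of -0.177 percentage points (exact permutation test, two-sided, p = 0.5), where the full total gave -0.466. A set of 3 entries known to resemble pieces of structural RNA, miR-1246, miR-6087 and miR-7641, also moved with the groups. They held 0.927%, 0.613% and 0.531% of the counts of the libraries titled ETBF, against 28.3%, 16.1% and 18.5% of those titled untreated. With these 3 entries left out of the total, the difference in the share was -1.17 percentage points (exact permutation test, two-sided, p = 0.1, the smallest possible). Libraries held 200207 to 417321 counts, so that 3 counts correspond to 8.26 to 14.6 CPM.

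hsa-miR-1 had 4815, 3120 and 5578 counts in the libraries titled ETBF, against 3956, 6411 and 5537 counts in those titled untreated. These are 16158, 14030 and 17233 CPM in the libraries titled ETBF, against 19195, 17655 and 17678 CPM in those titled untreated. The CPM of the groups did not overlap, with replicate 2 titled ETBF the lowest and replicate 1 titled untreated the highest. The means were 15807 ± 1630 CPM in the libraries titled ETBF and 18176 ± 882.3 CPM in those titled untreated (SD, n = 3 each). The log2 fold change was -0.20 with a standard error (SE) of 0.11 (edgeR's quasi-likelihood test with Benjamini-Hochberg adjustment, adjusted p = 0.237), and did not pass. It was -0.09 without replicate 2 titled ETBF.

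hsa-miR-133a-3p, the partner of miR-1 on both chromosomes, had 378, 238 and 400 counts in the libraries titled ETBF, against 284, 550 and 486 counts in those titled untreated. Its CPM were 1268, 1070.2 and 1236 in the libraries titled ETBF, against 1378, 1515 and 1552 in those titled untreated. The groups again did not overlap, and replicate 2 titled ETBF was again the lowest. The log2 fold change was -0.31 (SE 0.10; edgeR, adjusted p = 0.0601; unadjusted p = 0.0106). Without replicate 1 titled ETBF it was -0.39 and passed (edgeR, adjusted p = 0.0128), where adjusted p ran from 0.0128 to 0.350 over the 16 settings tried.

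miR-133a-5p, the other arm of the same hairpins, had 2, 6 and 14 counts in the libraries titled ETBF and 2, 4 and 12 counts in those titled untreated. The groups overlapped, and the entry held too few counts to be tested. It made up 2.12% of miR-133a counts in the pooled libraries titled ETBF (95% exact binomial interval 1.33 to 3.19%) and 1.35% in those titled untreated (0.799 to 2.12%), intervals that cover counting error only.

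hsa-miR-206, the skeletal muscle relative of miR-1, had 74, 43 and 67 counts in the libraries titled ETBF, against 51, 85 and 72 counts in those titled untreated. This was 216.2 ± 28.6 CPM in the libraries titled ETBF and 237.1 ± 9.18 CPM in those titled untreated (SD, n = 3 each). The CPM of the groups overlapped, since replicate 1 titled ETBF was the highest of all 6. The log2 fold change was -0.12 (SE 0.15; edgeR, adjusted p = 0.581).

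hsa-miR-122-5p, the liver miRNA, had 1464, 1122 and 1551 counts in the libraries titled ETBF, against 1114, 2064 and 2047 counts in those titled untreated. Its CPM were 4913, 5045 and 4792 in the libraries titled ETBF, against 5405, 5684 and 6536 in those titled untreated. The groups did not overlap, and replicate 3 titled untreated was the highest. The means were 4917 ± 126.7 CPM in the libraries titled ETBF and 5875 ± 588.9 CPM in those titled untreated (SD, n = 3 each). The log2 fold change was -0.26 (SE 0.10; edgeR, adjusted p = 0.0911; unadjusted p = 0.0248).

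miR-122-3p, its passenger arm, had 0, 2 and 3 counts in the libraries titled ETBF and 3, 2 and 1 counts in those titled untreated. All 6 values lie at or under the floor of 3 counts, so no difference was detectable at this depth. The entry made up 0.121% of miR-122 counts in the pooled libraries titled ETBF (95% exact binomial interval 0.0392 to 0.281%) and 0.115% in those titled untreated (0.0421 to 0.249%).

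**Figure D1:**
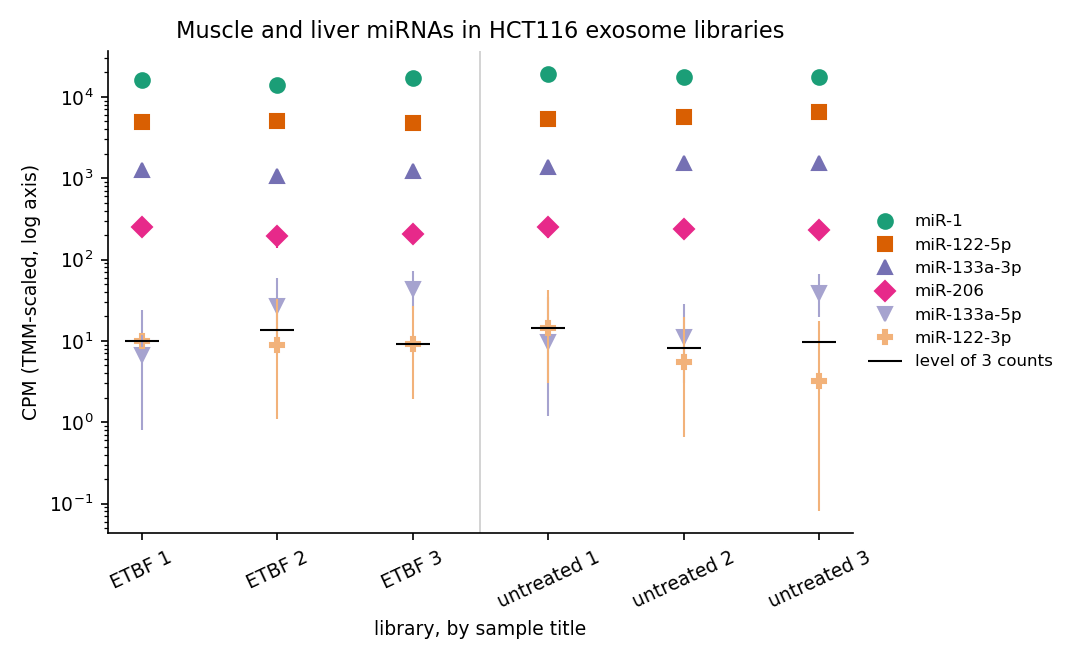
TMM-scaled CPM (log axis) of the 6 muscle and liver entries in each library, titled ETBF left and titled untreated right. Vertical lines are 95% Poisson intervals of the counts, shorter than the symbols for the abundant entries, and the black bar marks 3 counts, where an open symbol shows an entry with 0 counts. The order miR-1, miR-122-5p, miR-133a-3p, miR-206 was the same in 6 of 6 libraries.

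The 4 abundant entries kept one order, miR-1 above miR-122-5p above miR-133a-3p above miR-206, in 6 of 6 libraries, and no neighbours in that order overlapped in CPM. miR-133a-5p and miR-122-3p overlapped each other near the floor. Of the 4 tested entries, 0 passed an adjusted p of 0.05 by edgeR, DESeq2 or limma-voom, where edgeR called 14.4% of 195 tested entries. At an unadjusted p under 0.05, edgeR gave 2 of the 4, miR-133a-3p and miR-122-5p, both lower in the libraries titled ETBF, against 12.8% of tested entries that were lower by that rule. In TMM-scaled CPM the groups did not overlap, with the libraries titled ETBF lower, for 3 of the 4, against 19.5% of tested entries. That separation depended on the scaling: over 5 scalings it held in 4 for miR-133a-3p and miR-122-5p and in 2 for miR-1, and with library size alone it held for 0 of the 4. The mean was lower in the libraries titled ETBF for each of the 4 under all 5 scalings. All 4 fold changes were negative, against 51.8% of tested entries, whose median log2 fold change was -0.03. The 4 values share the same 6 libraries and the same scaling and are not independent of each other.

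**Figure D2:**
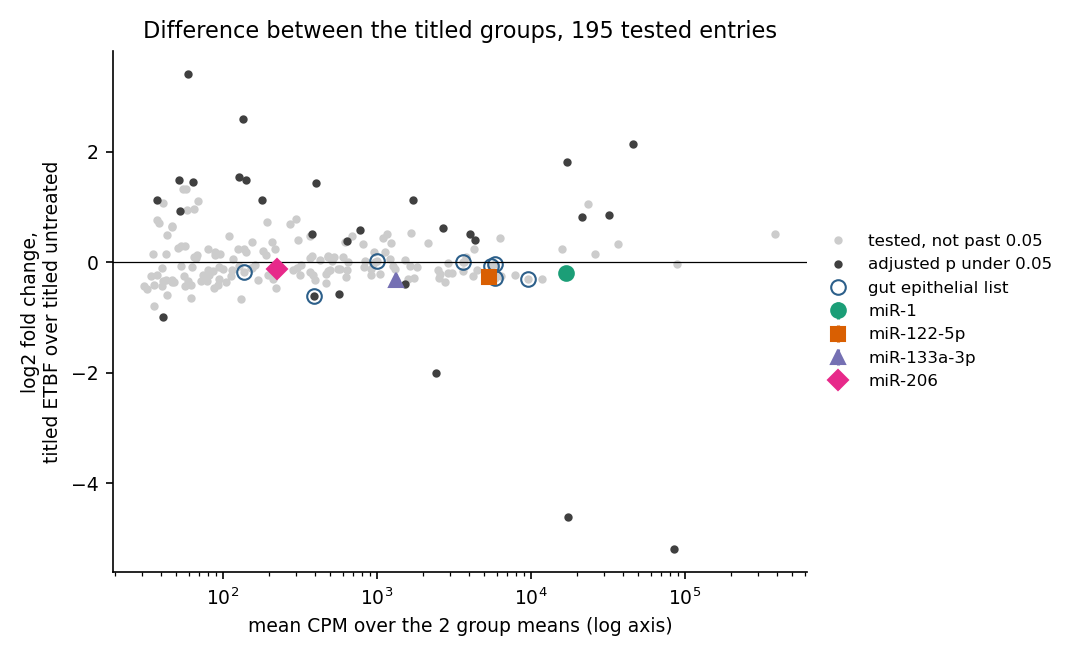
Log2 fold change (titled ETBF over titled untreated) against mean CPM (log axis) for 195 tested entries, with dark points at an adjusted p under 0.05. Coloured symbols are the 4 tested muscle and liver entries with standard errors shorter than or close to the symbol height, and open circles the gut epithelial list. The 4 lie between -0.31 and -0.12, among entries that did not pass.

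Ratios within a library do not depend on depth or scaling. miR-1 held 3.29, 2.78 and 3.60 counts per count of miR-122-5p in the libraries titled ETBF, against 3.55, 3.11 and 2.70 in those titled untreated. The highest and lowest values differed by 1.33-fold, and each group held values near both ends. The 95% exact binomial intervals of the extremes, 3.40 to 3.81 for replicate 3 titled ETBF and 2.57 to 2.85 for replicate 3 titled untreated, did not overlap, so the ratio varied among libraries beyond counting error. Its SD over 6 libraries was 0.17 on the log2 scale, where counting alone gives 0.04.

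The other 3 ratios varied less than that of miR-1 to miR-122-5p, and by similar amounts. miR-1 held 12.7, 13.1 and 13.9 counts per count of miR-133a-3p in the libraries titled ETBF, against 13.9, 11.7 and 11.4 in those titled untreated. The SD of that ratio was 0.12 on the log2 scale, where counting alone gives 0.08. At the deposited counts, the intervals of replicate 3 titled ETBF, 12.6 to 15.5, and of replicate 3 titled untreated, 10.4 to 12.5, did not overlap. Counts of miR-133a-3p were even in every library, as given below. Reads counted at both of its loci would make these intervals and the counting SD too small. Spread beyond counting error is therefore not established for this ratio. miR-1 held 65.1, 72.6 and 83.3 counts per count of miR-206 in the libraries titled ETBF, against 77.6, 75.4 and 76.9 in those titled untreated, and all 6 intervals overlapped. The SD was 0.12 on the log2 scale, below the 0.18 that counting alone gives. miR-122-5p held 3.87, 4.71 and 3.88 counts per count of miR-133a-3p in the libraries titled ETBF, against 3.92, 3.75 and 4.21 in those titled untreated, with an SD of 0.12 where counting gives 0.09, and all 6 intervals overlapped.

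No ratio separated the titled groups. The mean log2 ratio of miR-1 to miR-122-5p was 1.68 ± 0.19 in the libraries titled ETBF and 1.63 ± 0.20 in those titled untreated (SD, n = 3 each, exact permutation p = 0.7). That of miR-1 to miR-133a-3p was 3.73 ± 0.07 in the libraries titled ETBF and 3.62 ± 0.16 in those titled untreated (SD, n = 3 each, exact permutation p = 0.3). That of miR-122-5p to miR-133a-3p was 2.05 ± 0.16 in the libraries titled ETBF and 1.98 ± 0.08 in those titled untreated (SD, n = 3 each, exact permutation p = 0.7). Adjusted over 5 measures of composition, all p were 0.7. The differences for miR-1 to miR-122-5p and for miR-122-5p to miR-133a-3p, 0.05 and 0.06, changed sign when single libraries were left out.

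**Figure D3:**
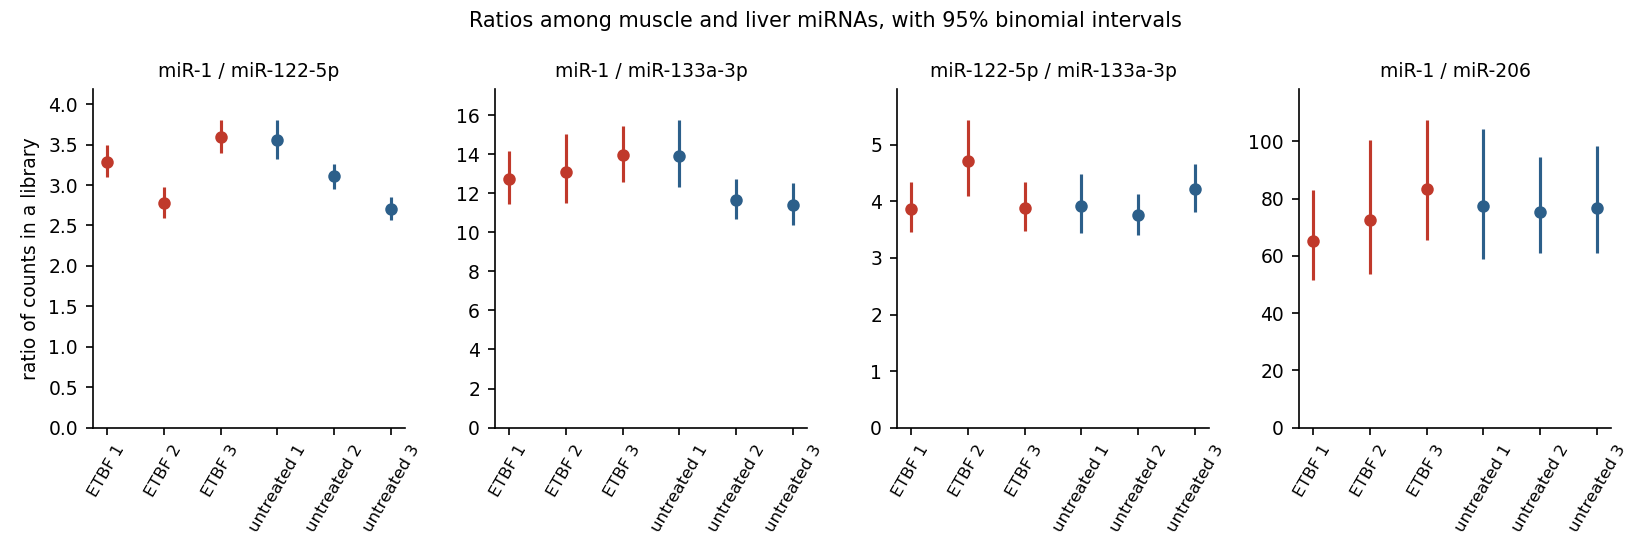
Ratios of counts among muscle and liver miRNAs in each library, titled ETBF in red and titled untreated in blue, with 95% exact binomial intervals. The ratio of miR-1 to miR-122-5p ran from 2.70 to 3.60 with intervals that did not all overlap, while the intervals of miR-1 to miR-206 all overlapped.

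Levels set between miRNAs carry a counting limit. miR-133a-3p and miR-133a-5p had even counts in 6 of 6 libraries, and miR-1 in 3 of 6. Among tested entries with 2 hairpins in the RefSeq table, 5 of 27 were even in every library, and among those with 1 hairpin 2 of 139. An entry whose reads are each counted at both loci has even counts. The loci are printed below with the mature part in lower case and 4 flanking bases in capitals.
MIR1-1: GCUAuggaauguaaagaaguauguauCUCA
MIR1-2: GCUAuggaauguaaagaaguauguauUUUU
MIR133A1: UGGAuuugguccccuucaaccagcugUAGC
MIR133A2: UGGAuuugguccccuucaaccagcugUAGC
The MIR133A1 and MIR133A2 hairpins are identical over 34 bases around miR-133a-3p, 7 before it and 5 after it. The MIR1-1 and MIR1-2 hairpins are identical over 26 bases, 4 before miR-1 and 0 after it. With miR-133a halved and miR-1 as deposited, miR-1 held 25.6 counts per count of miR-133a-3p on average over 6 libraries, where the deposited counts gave 12.8. With both divided by their 2 hairpins, miR-1 held 1.59 counts per count of miR-122-5p, where the deposited counts gave 3.17. Fold changes between the groups are not altered by such a division. Counting intervals and counting SDs took each count as a separate read, so they are too small for an entry counted at both loci.

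The entries with the smallest spread in their ratio to miR-1 were not muscle or liver miRNAs. There were 134 tested entries averaging at least 100 CPM, miR-1 included. The 5 with the smallest SD over 6 libraries of the log2 ratio to miR-1 were miR-24-3p (0.04), miR-10b-5p (0.06), miR-30a-5p (0.06), miR-146a-5p (0.06) and miR-199b-3p (0.06). The ratio of miR-199b-3p to miR-1 ran from 0.160 to 0.181, and that of miR-199a-3p, 6th in rank, from 0.320 to 0.362. Over 6 libraries, miR-199a-3p, an entry with 2 hairpins, averaged 5768 CPM and miR-199b-3p averaged 2883 CPM. Both entries moved together and may share reads, so they are not separate observations. How reads that fit several loci were counted was not tested. miR-206 was 21st, miR-133a-3p 26th and miR-122-5p 47th, and the median SD was 0.24. Lower counts raise this SD, so ranks of rare entries such as miR-206 are limited by counting. The SD of miR-206 was 0.12 where counting alone gives 0.18, and that of miR-24-3p was 0.04 where counting gives 0.06. That of miR-133a-3p was 0.12 where counting gives 0.08, with the limit on its even counts given above. The ranks alone therefore do not show which entries followed miR-1 most closely. The 8 ranked entries of the gut epithelial list had SDs of 0.11 to 0.34. Of these 8, 6 had an SD no larger than that of miR-122-5p, with miR-194-5p at 0.11, miR-192-5p at 0.14 and miR-200c-3p at 0.15.

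**Figure D4:**
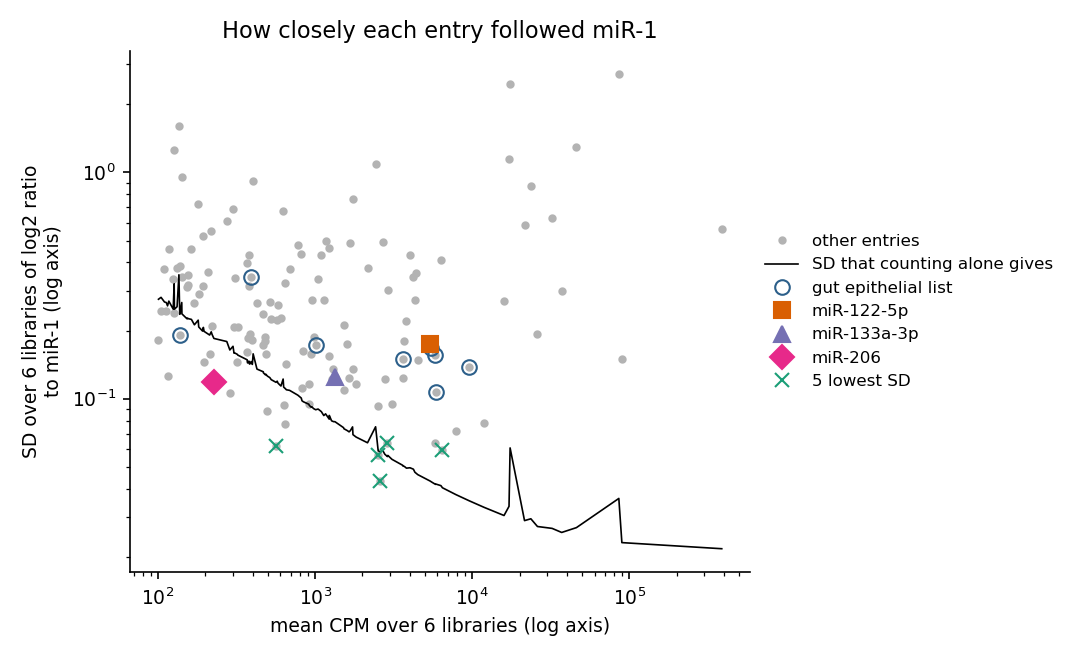
SD over 6 libraries of the log2 ratio to miR-1 against mean CPM (both log axes) for the tested entries averaging at least 100 CPM, with the line showing the SD that counting alone gives. The line takes every count as a separate read. miR-206 lies under that line, miR-133a-3p just above it and miR-122-5p well above it among the gut epithelial entries, and crosses mark the 5 entries with the smallest SD.

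Markers of other tissues were compared as whole lists. In the muscle list, 5 of 7 entries had counts and miR-208a-3p and miR-208b-3p, encoded in cardiac and slow muscle myosin genes, had 0 counts in all 6 libraries. A total of 0 to 6 counts per library was seen for miR-499a-5p, from the third such myosin gene. miR-133b had 15, 12 and 17 counts in the libraries titled ETBF and 9, 27 and 19 counts in those titled untreated (log2 fold change -0.24, SE 0.26). All 4 tested entries of the muscle list had negative fold changes with a median of -0.22, against 51.8% negative among all tested entries. Of the 4, 0 passed, where edgeR called 14.4% of 195 tested entries. The list summed to 15347 to 18741 CPM in the libraries titled ETBF and 19494 to 20869 CPM in those titled untreated.

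Gut epithelial markers were abundant in the same libraries. All 9 gut epithelial entries had counts, summing to 28783 to 32366 CPM in the libraries titled ETBF and 33052 to 34558 CPM in those titled untreated. Of 8 tested, miR-375 fell and 7 did not pass, with a median of -0.11, where edgeR called 14.4% of 195 tested entries. miR-192-5p, the most abundant of them, averaged 8531 ± 547.5 CPM in the libraries titled ETBF and 10566 ± 497.4 CPM in those titled untreated (SD, n = 3 each), below miR-1 in both groups. That order holds for the deposited counts. The ratio of miR-192-5p to miR-1 ran from 0.474 to 0.629 over the 6 libraries. If each read of miR-1 were counted at both of its loci, the means would turn round in both groups, though not every library would. The 6 muscle and liver entries together held 0.698, 0.708 and 0.811 counts per count of the gut epithelial list in the libraries titled ETBF, against 0.794, 0.747 and 0.753 in those titled untreated. In the gut list miR-194-5p also has 2 hairpins, so these levels carry the same counting limit. The titled groups overlapped, and the log2 ratio differed by -0.05 (exact permutation test, two-sided, n = 3 each, p = 0.6). Against miR-192-5p and miR-194-5p only, the difference was 0.08 (exact permutation test, two-sided, p = 0.2). With single libraries left out, the difference against the whole list ran from -0.12 without replicate 3 titled ETBF to -0.01 without replicate 1 titled ETBF. Relative to epithelial miRNAs of the same library, no difference between the groups in muscle and liver miRNAs was detected. The permutation test could not have passed 0.05, since 0.1 is its smallest p at 3 against 3.

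Stromal and endothelial markers such as miR-143-3p and miR-199a-3p summed to 10603 to 11665 CPM in the libraries titled ETBF and 12359 to 13950 CPM in those titled untreated, with a median log2 fold change of -0.20 and 0 of 7 past the threshold. The sum includes miR-199a-3p and miR-199a-5p, entries with 2 hairpins each and even counts in 5 and 6 of 6 libraries. Reads counted at both loci would raise the sum. Blood cell markers summed to 526.1 to 695.1 CPM in the libraries titled ETBF and 667.3 to 735.3 CPM in those titled untreated, with 0 of 5 tested past the threshold and a median of -0.06. The red cell miRNA miR-451a averaged 123.1 ± 32.7 CPM in the libraries titled ETBF and 131.2 ± 23.2 CPM in those titled untreated (SD, n = 3 each), far below miR-1 and miR-122-5p. Neuronal markers summed to 1849 to 2224 CPM in the libraries titled ETBF and 1247 to 1922 CPM in those titled untreated. Of 3 tested, 1 passed, miR-9-3p, which was higher in the libraries titled ETBF. Over all 195 tested entries edgeR called 14.4%, and lists this short cannot be told apart from that share. In TMM-scaled CPM, summed muscle, liver, gut epithelial and stromal levels were each lower in all 3 libraries titled ETBF than in any titled untreated. Of single tested entries, 19.5% separated in that way. The liver list is 1 entry and miR-1 made up most of the muscle sum, so those sums largely repeat the values of miR-122-5p and miR-1. Over 5 scalings the separation of these 4 sums held in 3, 4, 2 and 3, and with library size alone the groups overlapped for each of them. Neuronal sums overlapped in TMM-scaled CPM but separated in 2 of 5 scalings, with the libraries titled ETBF higher. Blood cell sums separated in 0 of 5. Whether the muscle and liver miRNAs came from the HCT116 cells, from the medium or from handling was not tested.

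**Figure D5:**
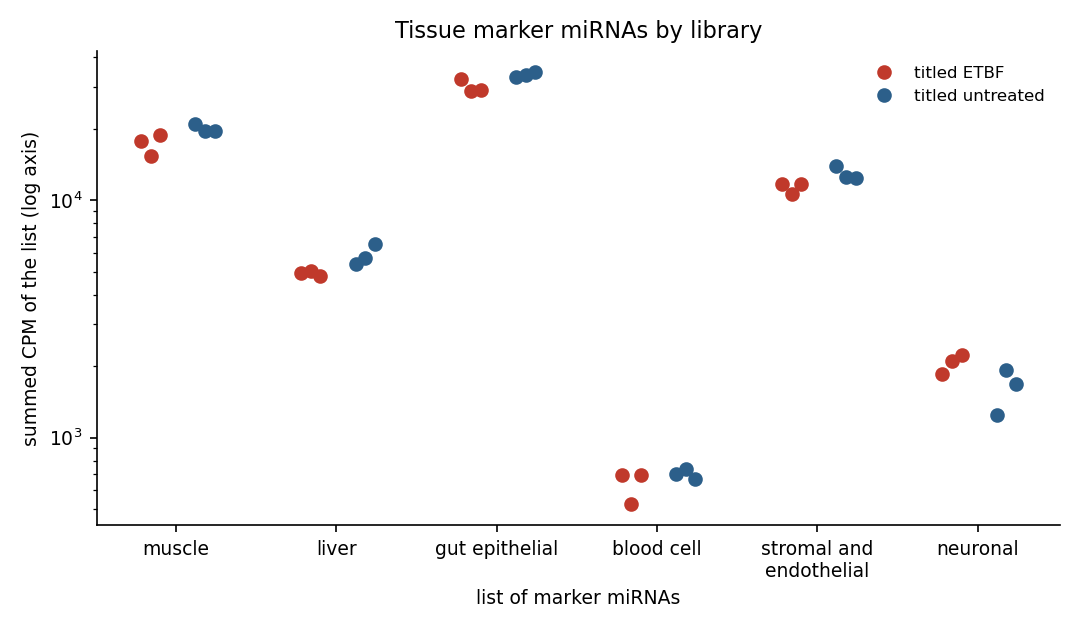
Summed CPM (log axis) of each list of tissue marker miRNAs, 1 point per library, titled ETBF in red on the left of each pair and titled untreated in blue on the right. Muscle, liver, gut epithelial and stromal sums were lower in all 3 libraries titled ETBF in this scaling, though not with library size alone. Blood cell and neuronal sums overlapped between the groups in this scaling, and neuronal sums separated in 2 of 5 scalings.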

How the data were processed

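Exosomal RNA was extracted with Trizol and libraries were made from 100 ng with an Illumina TruSeq RNA kit, per the labels' protocols. Trimmomatic, FastQC, featureCounts and the build GRCh37.p5 are named, without their roles, per the submitters' processing notes. Not given in the sources used here are an aligner, an annotation and the handling of reads that fit several loci. The values deposited are raw counts for each mature miRNA entry.

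Groups follow the sample titles. Entries kept by filterByExpr of edgeR (minimum count 10) numbered 195 of 2575 and held at least 99.65% of each library; 4 of the 6 muscle and liver entries were among them and 2 were not. The quasi-likelihood test of edgeR was applied, two-sided, after TMM scaling (factors from 0.776 up to 1.19), with Benjamini-Hochberg adjustment over the tested entries and a threshold of 0.05. CPM are relative to the TMM-scaled library total, and each SE was derived from the F statistic. Nothing in the labels ties replicates to separate cultures, so p-values reflect library spread that may be technical only. Replicate pairs differed beyond sampling noise (chi-square per degree of freedom from 10.04 up to 104.5), so each library counted as 1 sample. Composition was tested by exact permutation over libraries, where 3 against 3 cannot give a p under 0.1. Intervals cover counting error only.

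Named entries are the 6 members, entries of the tissue marker lists, and 5 picked by their SD. These 5 had the smallest SD of the log2 ratio to miR-1 among tested entries with at least 100 CPM. Chosen after their values were seen were miR-613 and miR-148a-3p, and list entries at or near 0 counts (miR-208a-3p, miR-208b-3p, miR-499a-5p). The structural RNA entries left out in one alternative are miR-7641, miR-6087 and miR-1246. The members and lists were chosen with earlier results of these data known. Alternatives were other scalings, filters and tests, the replicate number as a block, structural RNA entries left out, counts divided by hairpins, both arms summed, other denominators and each replicate left out. Halving miR-133a alone, and the overlap of groups under 5 scalings, were added after seeing the data. In simulated counts for the titled groups 214 entries were tested. Of 34 with a 2-fold change 76.5% were recovered, and of 36 with a 4-fold change 100%. False calls were 6.06% of all, and 0 of 204 entries were called where nothing changed. The simulation took 1 replicate spread for all entries and did not build in the shift in structural RNA entries. The 4 tested muscle and liver entries differed by 1.09- to 1.24-fold, so the recovery of larger changes does not cover them. Sequences and loci are from RefSeq on GRCh38.p14 and host genes from GENCODE release 29, a build other than the submitters'. Tests ran in Python 3.11.15 with SciPy 1.17.1 and in R 4.3.3 with DESeq2 1.42.0, limma 3.58.1 and edgeR 4.0.16.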

Additional observations from a re-analysis of the deposited data

How the results depend on the processing

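The log2 fold changes of miR-1, miR-122-5p and miR-206 stayed negative and short of the threshold in all 16 settings, from -0.28 to -0.09, from -0.31 to -0.19 and from -0.27 to -0.02. That of miR-133a-3p stayed negative, from -0.39 to -0.21, and passed in 1 of 16, without replicate 1 titled ETBF. miR-133a-5p, tested only under the wider filters, had 0.33 with no filter and 0.32 with the 10 CPM filter, and miR-122-3p had -0.24 with no filter, none past the threshold. Calls over all entries, 28 in the main setting (21 higher, 7 lower), were 51 with no filter and 17 to 59 when single replicates were left out: 59 without replicate 1 titled ETBF (64.4% higher), and 17 each without replicate 3 titled ETBF and without replicate 3 titled untreated. The higher share was 85.7% with upper-quartile scaling (42 calls) and 88.2% without miR-7641, miR-6087 and miR-1246 (34 calls).

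The difference in the share of counts stayed negative in all 10 settings, from -1.17 percentage points without miR-7641, miR-6087 and miR-1246 in the total to -0.177 without miR-148a-3p. Single replicates left out gave -0.718 (without replicate 1 titled ETBF) to -0.286 (without replicate 3 titled ETBF), and dividing counts by hairpins gave -0.293.

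The replicate block gave 38 calls and 0 among the 4 tested entries, with miR-133a-3p at an adjusted p of 0.0502 by edgeR. Same-numbered libraries deviated together with correlations of 0.18, 0.10 and 0.05, and replicate 3 titled ETBF correlated better with another number (0.07), so the numbers were not taken to pair the libraries.

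Left-out replicates moved the difference of log2 ratios between -0.0518 and 0.149 for miR-1 to miR-122-5p (negative without either replicate 3) and between -0.0304 and 0.111 for miR-122-5p to miR-133a-3p (negative without replicate 2 titled ETBF). Against miR-192-5p and miR-194-5p only, the difference for members over gut epithelial entries was 0.0827, where the whole list gave -0.0524; the cause was not tested. Left-out replicates moved the value for the whole list between -0.121 and -0.0129. Mean ratios moved with the counting of loci by construction: miR-1 to miR-122-5p was 1.59 with counts divided by hairpins, miR-122-5p to miR-133a-3p was 8.12 both so divided and with miR-133a alone halved, and miR-1 to miR-133a-3p was 25.6 in the last case. Depth limits miR-122-3p, at 0 to 3 counts a library, miR-499a-5p, at 0 to 6, and miR-133a-5p, at 2 to 14.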
